A study of Mus musculus with 8 samples.

Results

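The genes described here are 8 TALE homeobox factors, Pbx2, Pbx3, Pbx4, Meis1, Meis2, Meis3, Pknox1 and Pknox2. All probes that the platform annotation pairs with these symbols were taken, which gave 21 of the 41174 gene probes on the array, for 8 of its 18322 named genes. The family was chosen by its log2 ratios of siRNA over scrambled, which were already known to be low for some of its probes. Those ratios are therefore given as a description. Counts of TALE probes called against scrambled stand beside the share of all probes called and support nothing, and the tested comparison of the family is the difference between the siRNAs.

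TALE proteins carry a homeodomain with an extra loop of amino acids and bind DNA largely as heterodimers. Pbx proteins pair with Meis or Pknox proteins, and Pbx partners also bind jointly with Hox and other homeodomain factors. Meis and Pknox partners help keep Pbx proteins in the nucleus, and in the embryonic forebrain Meis2 is known for its expression in the ganglionic eminences and in cortical neurons.

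Expression was measured on 8 mouse arrays with 2 colours, which compared cells that had received an siRNA against Foxo6, a FoxO transcription factor, with cells that had received a non-targeting scrambled siRNA. Embryos of C57/BL6 mice were electroporated at E14.5 and the dissociated cortex was sorted at E16.5. The siFoxO6-2 group and the siFoxO6-3 group each held 4 pools of cortices, and 1 scrambled pool served as the reference on all 8 arrays. Every group, the scrambled one included, also received the GFP vector, and Foxo6 was silenced transiently in electroporated cells rather than deleted. These are pools of sorted cells, so fewer cells of a type and less RNA per cell cannot be told apart.

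The siRNAs matter here because they are separate sequences against the same gene, so each gives its own series of 4 arrays. Both are written 5′ to 3′ in lower case, without the 2 unspecified leading bases of the labels.
siFoxO6-2: acaugccagugacgacuac
siFoxO6-3: ccaucagccuuaugacgcu
The longest run of bases that they share is 5. The single Foxo6 probe had log2 ratios of −0.88, −1.21, −0.40 and −1.30 on the siFoxO6-2 arrays (replicates 1 to 4). On the siFoxO6-3 arrays it had −1.36, −2.31, −1.21 and −1.74. After loess the target was thus below scrambled on 8 of 8 arrays and least lowered on siFoxO6-2 replicate 3. Before normalization its siRNA channel was the dimmer one on 5 of 8 arrays.

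Of the whole series, 3 arrays resembled the others least. The median correlation across probes with the other arrays was 0.131 for siFoxO6-3 replicate 4, 0.269 for siFoxO6-2 replicate 3 and 0.282 for siFoxO6-3 replicate 3, against 0.412 to 0.555 for the other 5. The median siRNA-channel intensity ran from 58.0 to 123 per array, and the number of arrays limits the precision. The values of the probes with the lowest ratios, and of Meis2, are also given without the 3 arrays.

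Of the 21 TALE probes, 11 exceeded the empty control spots in both channels of all 8 arrays, against 21473 of all gene probes. These were 3 probes of Meis2, a pair each for Pbx3 and Pknox2, and 1 each for Pbx2, Meis1, Meis3 and Pknox1. Probes of a gene are numbered from the brightest. The other 10 probes, which include both probes of Pbx4, had mean log2 ratios between −0.05 and 0.07, and no level of those transcripts can be read from them.

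Pbx3, a DNA-binding partner of Meis and Hox proteins, had the lowest ratios among the Pbx genes. On the siFoxO6-2 arrays its probe 1 had log2 ratios to scrambled of −1.19, −1.87, −2.47 and −1.12. On the siFoxO6-3 arrays the values were −1.30, −1.49, −0.76 and −1.10. All 8 arrays were low, and the siRNA groups overlapped. The group means were −1.66 ± 0.63 with siFoxO6-2 and −1.16 ± 0.31 with siFoxO6-3 (SD, n = 4 arrays each). Averaged over both siRNAs, the log2 ratio was −1.41 (SE 0.16), or 37.6% of the scrambled signal, which was the 7th lowest of 41174 probes.

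The second Pbx3 probe was lower by less. Its log2 ratios were −0.74, −0.43, −0.73 and −0.45 with siFoxO6-2 and −0.67, −0.43, 0.04 and −0.52 with siFoxO6-3. It lay below 0 on 7 of 8 arrays, with siFoxO6-3 replicate 3 as the exception. The mean over both siRNAs was −0.49 (71.1% of scrambled), and probe 1 minus probe 2 ran from −1.74 to −0.45 over the 8 arrays. The remaining 3 Pbx3 probes were among the dim ones, at −0.03, −0.02 and 0.04.

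Pbx2, a broadly expressed Pbx protein, had 1 probe above the empty spots. Its log2 ratios were −0.10, −0.31, 0.05 and −0.32 with siFoxO6-2 and −0.30, −0.47, −0.01 and −0.15 with siFoxO6-3. The mean over both was −0.20, with 7 of 8 arrays below 0 and the siRNA groups overlapping. Pbx4, known in mice mainly from the testis, gave 0.03 on both of its dim probes.

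Meis2 had the brightest probes of the family and, among probes above the empty spots, the largest gap between the means of its own probes. Probe 3 had log2 ratios of −1.35, −1.87, −2.99 and −1.87 with siFoxO6-2. With siFoxO6-3 it had −1.56, −1.75, −1.04 and −0.92. All 8 arrays were low, lowest on siFoxO6-2 replicate 3, and the siRNA groups overlapped. The means were −2.02 ± 0.70 and −1.32 ± 0.40 (SD, n = 4 arrays each), and −1.67 (SE 0.18) over both siRNAs. That is 31.5% of the scrambled signal, the 5th lowest of 41174 probes over both siRNAs and the lowest with siFoxO6-2.

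Meis2 probes 1 and 2 were both brighter than probe 3. Probe 1 had log2 ratios of −0.30, 0.14, −0.86 and −0.19 with siFoxO6-2 and −0.61, −0.05, −0.32 and −0.82 with siFoxO6-3. Probe 2 had 0.02, 0.16, −0.84 and −0.30 with siFoxO6-2 and −0.09, −0.08, −0.15 and −0.93 with siFoxO6-3. Both varied around small negative values, at means of −0.38 and −0.28, and each had its lowest values on siFoxO6-2 replicate 3 and siFoxO6-3 replicate 4. On leaving out 1 array the mean ran from −0.44 to −0.27 for probe 1 and from −0.36 to −0.15 for probe 2. Without the 3 arrays that resembled the others least, the mean of probe 1 was −0.26 and that of probe 2 −0.059. Probe 3 lay below probe 1 on all 8 arrays, with a log2 gap of −2.14 to −0.11 and a median of −1.36. The files give neither the probe sequences nor the exons they cover, so which Meis2 transcripts each probe detects is not known here. A statement on Meis2 as a gene therefore depends on the probe, while Meis2 probe 3 and Pbx3 probe 1 differed from each other by −0.75 to 0.18 on the same arrays.

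**Figure D1:**
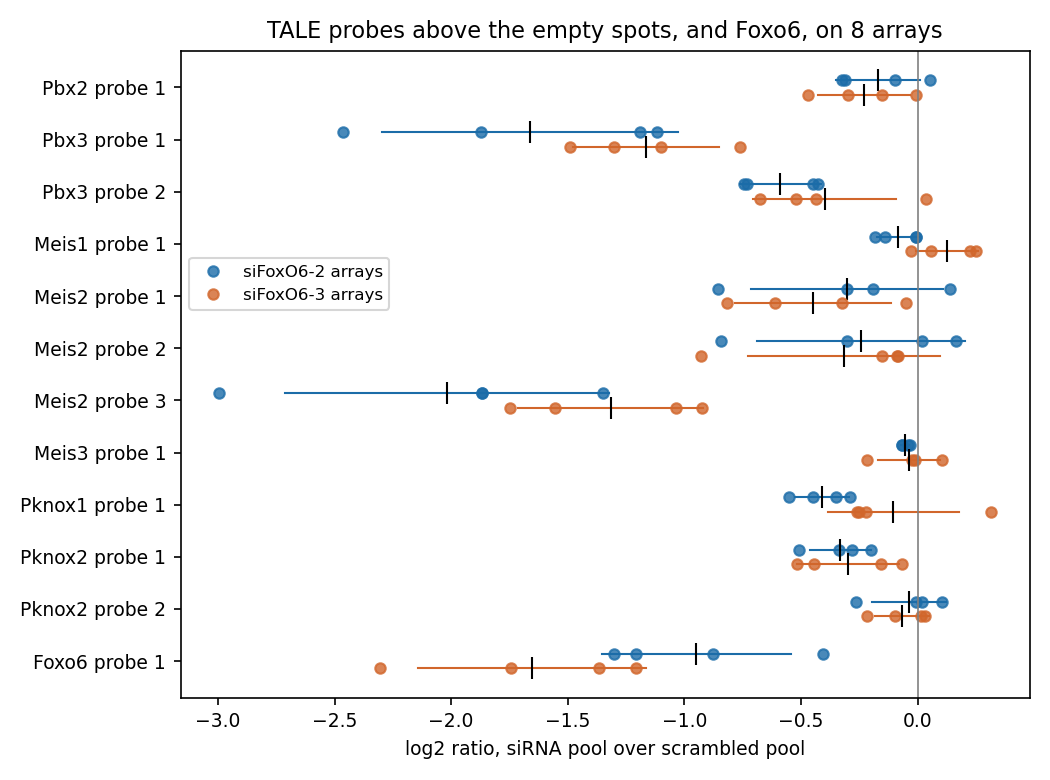
Log2 ratio of siRNA over scrambled (x axis, after loess) for the 11 TALE probes above the empty spots and Foxo6 (rows); points are arrays, black ticks means and lines 1 SD of 4 arrays. Pbx3 probe 1 and Meis2 probe 3 lie at −0.76 or lower on all 8 arrays, whereas Meis2 probes 1 and 2 reach 0.14 and 0.16; with median centring in place of loess, 7 of the 11 means change sign, and those of Pbx3 probe 1 and Meis2 probe 3 do not.

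The raw channel signals show what lies under these ratios. For Pbx3 probe 1 the siRNA and scrambled intensities were 673 and 850, 296 and 582, 91.4 and 504, and 841 and 446 on siFoxO6-2 replicates 1 to 4. On the siFoxO6-3 replicates they were 537 and 751, 717 and 615, 1128 and 622, and 138 and 408. The siRNA channel was thus the dimmer one on 5 of 8 arrays and the brighter one on 3. For Meis2 probe 3 the siRNA channel was likewise dimmer on 5 of 8 arrays, the largest gap being 220 against 1717 on siFoxO6-2 replicate 3. Meis2 probe 1 was brighter in the siRNA channel on 6 of 8 arrays, with up to 14972 against 2548 on siFoxO6-2 replicate 4. Averaged over arrays, bright spots as a whole were brighter in the siRNA channel. Loess removes that trend, so the low ratios stand relative to other probes of like brightness.

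**Figure D2:**
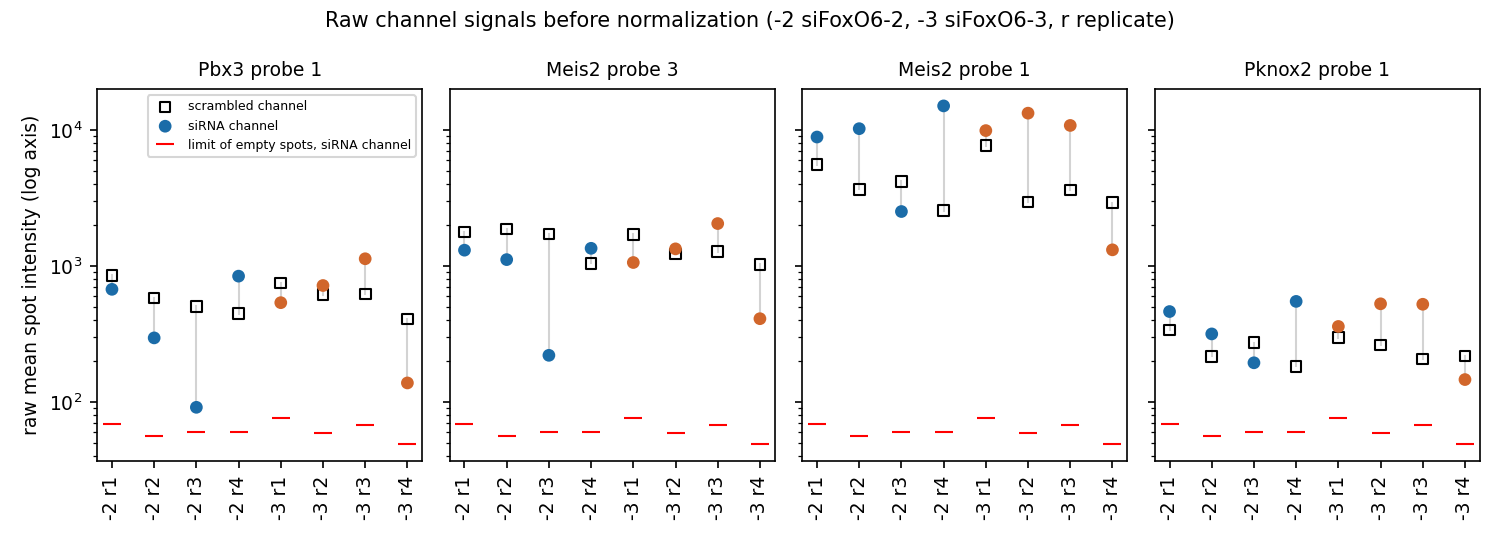
Raw mean spot intensity (log axis) of the siRNA channel (filled, blue for siFoxO6-2, orange for siFoxO6-3) and the scrambled channel (open squares) on each array, for 4 TALE probes; red dashes mark the 97.5th percentile of empty spots in the siRNA channel. For Pbx3 probe 1 and Meis2 probe 3 the siRNA channel is dimmer on 5 of 8 arrays, and for Meis2 probe 1 on 2.

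How much of each ratio depends on that step was measured by centring every array on its median instead. Meis2 probe 3 then stood at −1.03 and Pbx3 probe 1 at −0.87 over both siRNAs, with Foxo6 at −0.69. Of the 11 TALE probes above the empty spots, 7 changed sign. They were Pbx3 probe 2 (0.02), Pbx2 probe 1 (0.08), Meis2 probes 1 (0.46) and 2 (0.51), Pknox1 (0.11) and Pknox2 probes 1 (0.12) and 2 (0.38). Under median centring the median log2 ratio of all probes was −0.20 at log2 intensities of 5.5 to 6.5 and 0.62 at 9.5 to 10.5. Relative to the median of probes within 0.5 of the same log2 intensity, Meis2 probe 3 was at −1.65, Pbx3 probe 1 at −1.39 and Pbx3 probe 2 at −0.48. The direction of Meis2 probe 3 and Pbx3 probe 1 was the same under both scalings, as was that of Meis1 probe 1 and Meis3, whose ratios were near 0.

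**Figure D3:**
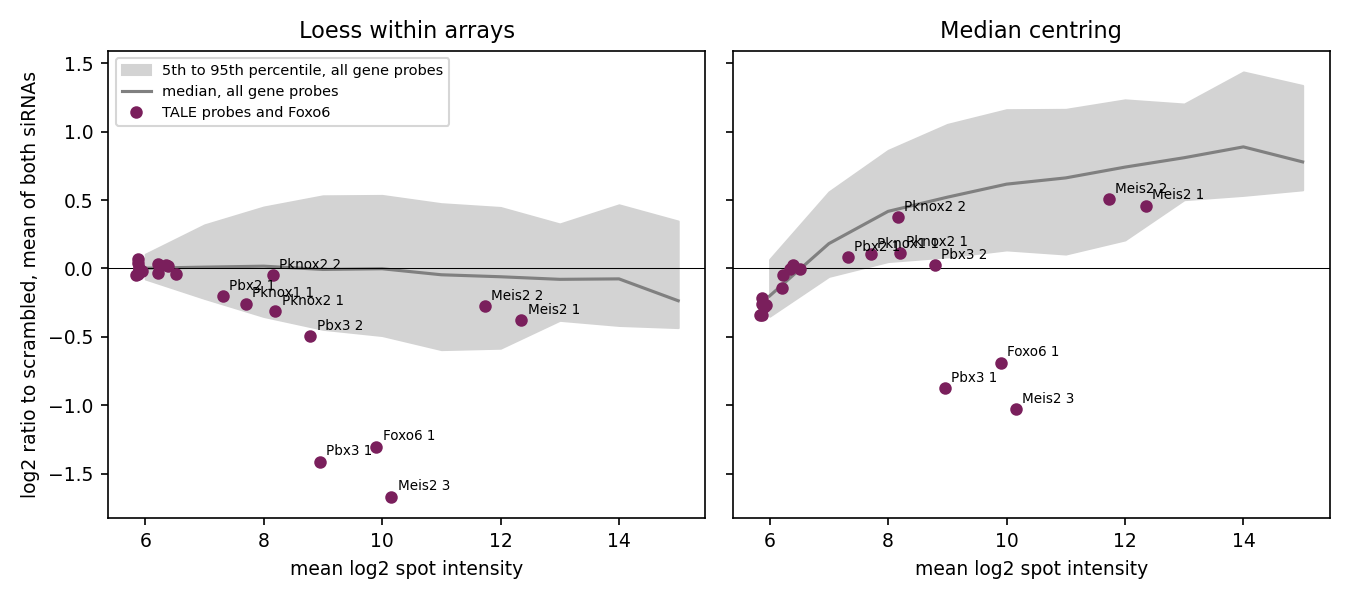
Mean log2 ratio over both siRNAs (y axis) against mean log2 spot intensity (x axis) after loess (left) and median centring (right), with the median (grey line) and the 5th to 95th percentile (grey band) of all gene probes in each intensity bin. Meis2 probe 3 and Pbx3 probe 1 lie below the band in both panels (−1.67 and −1.41, then −1.03 and −0.87), and the Meis2 probe 1 mean moves from −0.38 to 0.46.

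The cofactors Pknox1 and Pknox2, which dimerize with Pbx as the Meis proteins do, had smaller ratios. Pknox1 had log2 ratios of −0.55, −0.45, −0.35 and −0.29 with siFoxO6-2. With siFoxO6-3 it had −0.25, −0.22, 0.32 and −0.26. After loess, all 4 siFoxO6-2 arrays lay below all 4 siFoxO6-3 arrays, though narrowly, at −0.29 against −0.26. Pknox1 was the only TALE probe with this separation, which 3.58% of all gene probes showed in either direction. No dye effect was removed from these ratios. In the deposited ratios the groups overlapped, at −0.28 on siFoxO6-2 replicate 4 and −0.31 on siFoxO6-3 replicate 1.

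Pknox2 probe 1 had log2 ratios of −0.34, −0.28, −0.51 and −0.20 with siFoxO6-2 and −0.45, −0.52, −0.07 and −0.16 with siFoxO6-3. It was below 0 on 8 of 8 arrays, with a mean of −0.31, and the siRNA groups overlapped. Pknox2 probe 2, of nearly the same brightness, averaged −0.05 and was below 0 on 4 of 8 arrays.

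Meis1 and Meis3, close relatives of Meis2, had ratios near 0. Meis1 probe 1 ranged from −0.18 to 0.25 over the 8 arrays with a mean of 0.02. The single Meis3 probe ranged from −0.21 to 0.10 with a mean of −0.04. Both probes were only slightly brighter than the empty spots, at a mean log2 intensity of 6.39 and 6.52. The offset of 50 added to every spot pulls ratios of such dim probes towards 0. Ratios near 0 therefore do not show that these transcripts were unchanged.

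Over both siRNAs, 5 of the 21 TALE probes were called lower (limma adjusted p under 0.05) and 0 higher, and 11.8% of all gene probes were called in either direction, 5.73% lower and 6.12% higher. Among all probes above the empty spots, 20.1% were called, 10.1% lower and 9.99% higher. The 5 were Meis2 probe 3, Pbx3 probes 1 and 2, Pbx2 probe 1 and Pknox2 probe 1. With siFoxO6-2 the count was 4 lower and 0 higher (Meis2 probe 3, Pbx3 probes 1 and 2, Pknox1), against 7.86% of all probes called, 3.78% lower. Of all probes above the empty spots, 13.5% were called with siFoxO6-2, 6.81% lower. With siFoxO6-3 the count was 0 by limma, against 0.658% of all probes called and 1.21% of those above the empty spots. An unadjusted limma p under 0.05 was found there for 7 TALE probes and 5790 of all probes (14.1%). Above the empty spots that share was 22.0%. The median log2 ratio over both siRNAs was −0.28 for the 11 TALE probes above the empty spots and 0.0004 for all such probes. These counts come from the contrast by which the family was chosen, and nothing is read from them.

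Without the 3 arrays that resembled the others least, Meis2 probe 3 stood at −1.64 and Pbx3 probe 1 at −1.37 over both siRNAs. The called TALE probes then numbered 7 over both siRNAs, 6 with siFoxO6-2 and 5 with siFoxO6-3, while 22.4%, 20.1% and 7.99% of all probes were called. The calls leave out the spread of the scrambled reference, which was 1 pool. When the fit let that pool vary as much as the siRNA pools do, 0 TALE probes and 0 of all 41174 were called by limma over both siRNAs, with 908 of all probes at an unadjusted p under 0.05.

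The siRNAs were compared with each other, a contrast in which the reference pool cancels. By limma, 0 of 21 TALE probes and 0 of 41174 probes (0% called) passed the test for a difference between siFoxO6-3 and siFoxO6-2. At an unadjusted p under 0.05 there were 1 TALE probe and 2789 of all probes (6.77%). Meis2 probe 3 was 0.70 higher with siFoxO6-3 on the log2 scale (95% interval −0.13 to 1.54, limma adjusted p = 0.796). Pbx3 probe 1 was 0.50 higher (−0.25 to 1.24, limma adjusted p = 0.869). Both intervals are wide, and both include differences of 1 log2 unit.

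These 2 differences varied with the arrays used. On leaving out 1 array the difference ran from 0.34 to 0.998 for Meis2 probe 3 and from 0.18 to 0.71 for Pbx3 probe 1. Both were lowest without siFoxO6-2 replicate 3. Without all 3 arrays that resembled the others least, the differences were −0.02 and −0.05, with only replicates 1 and 2 left for siFoxO6-3. Meis1 probe 1 was the TALE probe with an unadjusted p under 0.05, at 0.21 higher with siFoxO6-3 (0.04 to 0.37, limma adjusted p = 0.589). For Pknox1 the difference was 0.31 (−0.01 to 0.63, limma adjusted p = 0.750). Foxo6 itself was 0.71 lower with siFoxO6-3 than with siFoxO6-2 (difference −0.71, interval −1.05 to −0.37, limma adjusted p = 0.348). That interval held only negative differences, at an unadjusted limma p of 0.0016, but the difference did not pass after adjustment over all probes. Its sign was opposite to that of Meis2 probe 3 and Pbx3 probe 1. On siFoxO6-2 replicate 3, where both TALE probes had their lowest values, Foxo6 had its highest, −0.40. No dye effect was removed from that value. Replicates 1 and 3 share a dye orientation, and with each siRNA their Foxo6 ratios were above those of replicates 2 and 4. In the deposited ratios Foxo6 stood at −0.65 on siFoxO6-2 replicate 3, against −0.88 on siFoxO6-2 replicate 2. This concerns 1 array, and a relation between the TALE ratios and the extent of Foxo6 silencing was not tested.

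**Figure D4:**
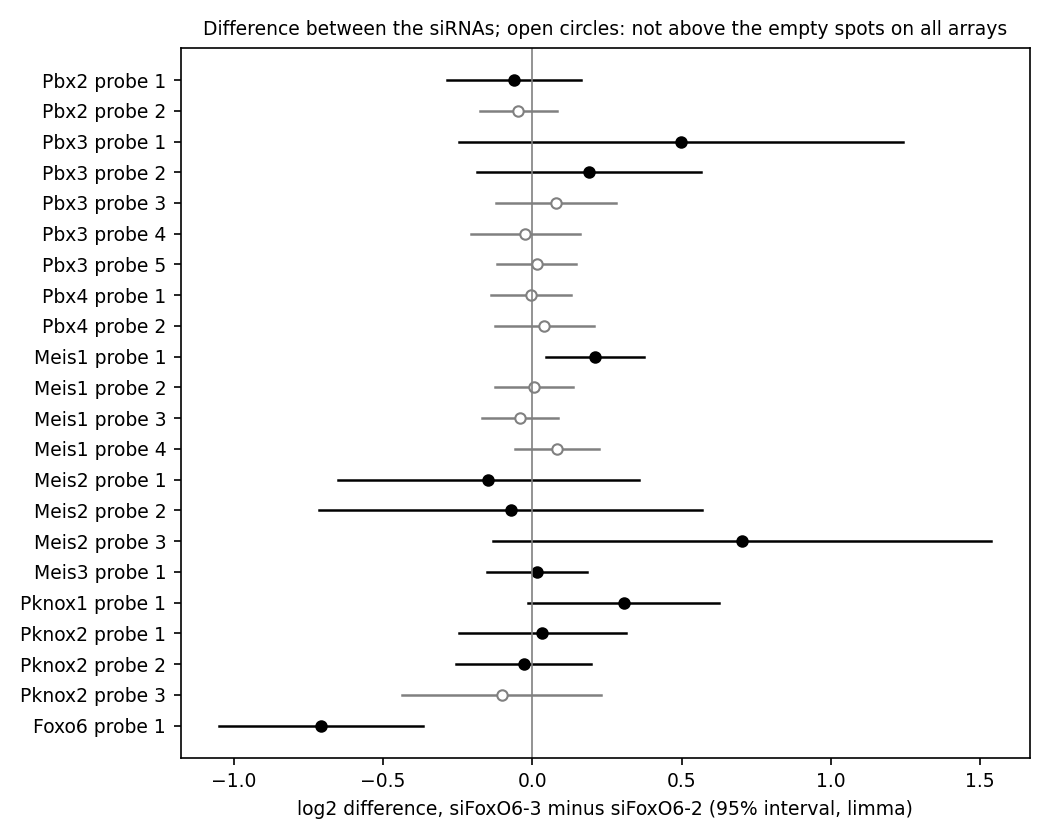
Log2 difference between the siRNAs, siFoxO6-3 minus siFoxO6-2, with 95% intervals from limma (x axis) for the 21 TALE probes and Foxo6 (rows); filled points are probes above the empty spots on all arrays, open points the other 10. Meis2 probe 3 (0.70) and Pbx3 probe 1 (0.50) have the widest intervals, and both include 0; without the 3 arrays that resembled the others least both differences are below 0.

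Other genes of the same superclass and pathway were followed by the brightest probe of each gene, for which 15.2% of all genes were called over both siRNAs, 7.95% lower and 7.29% higher. Of 9 other TALE genes (the Tgif, Irx and Mkx genes), 6 were above the empty spots and 0 were called by limma in either direction. Of 16 measured partners of Pbx and Meis, 0 rose and 3 fell by limma: Smarca4 (−0.80), the ATPase of a chromatin remodelling complex, Parp1 (−0.23), a poly(ADP-ribose) polymerase, and Klf4 (−0.13), a zinc finger factor. Of 13 genes known from other tissues or stages as Pbx or Meis targets, 0 rose and 1 fell, the cyclin gene Ccnd1 (−0.36). Under median centring 0 of these 4 genes were called, and Parp1 (0.24), Klf4 (0.04) and Ccnd1 (0.17) changed sign. The calls of Parp1, Klf4 and Ccnd1 were also lost on leaving out single arrays, and that of Smarca4 was not. The median over the list was −0.02 for the partners and −0.02 for the targets, against 0.003 for all probes.

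Meis2 also marks cells of the ganglionic eminences, so markers of other cells are given beside its ratios. Of 12 ganglionic eminence and interneuron markers, 11 were above the empty spots, 0 were called higher by limma and 1 lower over both siRNAs (Ebf1, −0.31). Dlx1 went the other way, at 0.46, without being called, and the list median was −0.04. Their summed level, on the log2 scale relative to scrambled, ran from −0.43 to 0.32 on the siFoxO6-2 arrays and from −0.35 to 0.53 on the siFoxO6-3 arrays. Microglia markers were called higher for 5 of 6 genes (Aif1, Csf1r, Ctss, Lyz2 and Ptprc), and their summed level was 0.88 to 1.23 with siFoxO6-2 and 0.23 to 0.46 with siFoxO6-3. Oligodendrocyte lineage markers were called higher for 3 of 4 genes (Olig1, Olig2 and Pdgfra) and endothelial and mural markers for 1 of 6 (Cldn5). Apical progenitor markers were called lower for 1 of 6 genes (Nes, −0.50), while Sox2 (0.32) and Emx2 (0.26) went the other way without being called. Intermediate progenitor markers were called lower for 1 of 3 (Eomes, −0.10, limma adjusted p = 0.0498), with Neurog2 at 0.15 and Neurog1 at 0.05. The list medians over both siRNAs were −0.12 and 0.05. The summed level of the apical progenitor markers ran from −0.54 to −0.07 with siFoxO6-2 and from −0.48 to 0.33 with siFoxO6-3. With siFoxO6-2, Nes (−0.65) and Pax6 (−0.39) were called lower by limma and 0 of 6 higher, against 5.41% of all genes called lower. For the intermediate progenitor markers the summed level ran from −0.16 to 0.26 with siFoxO6-2 and from −0.05 to 0.10 with siFoxO6-3. Of the Cajal-Retzius markers 0 of 4 were called, and of the measured erythroid markers 0 of 3. All 7 measured cortical projection neuron markers were above the empty spots. So were 6 of 6 microglia and 3 of 3 measured erythroid markers, so this does not check the tissue. Of the projection neuron markers 1 was called lower (Bcl11b, −0.55), while Tbr1 (0.32) went the other way without being called. Of 5 hindbrain and posterior markers, 1 was above the empty spots and 0 were called. The part of these cells in the Meis2 and Pbx3 ratios was not tested.

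For Pbx3 probe 1, the named genes with the most similar pattern over the 8 arrays were Ube2k (Pearson r = 0.978), Vapa (0.969), Casp8ap2 (0.961), Ugdh (0.959) and Cadm2 (0.956), out of 13068 genes. For Meis2 probe 1 they were Msh3 (0.971), Lin7a (0.931), Rai14 (0.929), Fbxo11 (0.925) and Aes (0.920). These are descriptions over 8 arrays that share 1 reference pool, and they concern the shape over arrays, not the level: Ube2k averaged −0.11 with siFoxO6-2 and 0.08 with siFoxO6-3, far from the level of Pbx3.

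A promoter window (250 bases before to 50 after 1 annotated start, RefSeq, GRCm38.p6) was at hand for 5 of the 8 genes, Meis1, Meis2, Meis3, Pbx2 and Pbx4. That start is the outer 5′ end of the gene for Pbx2, and it lies inside the gene by 148 bases for Pbx4, 682 for Meis1, 1383 for Meis3 and 2918 for Meis2, so upstream starts are not covered. The Meis2 window is shown because Meis2 holds the lowest probe of the family; it lies at chr2:116064570-116064869 on the minus strand and is written 5′ to 3′.
Meis2 promoter: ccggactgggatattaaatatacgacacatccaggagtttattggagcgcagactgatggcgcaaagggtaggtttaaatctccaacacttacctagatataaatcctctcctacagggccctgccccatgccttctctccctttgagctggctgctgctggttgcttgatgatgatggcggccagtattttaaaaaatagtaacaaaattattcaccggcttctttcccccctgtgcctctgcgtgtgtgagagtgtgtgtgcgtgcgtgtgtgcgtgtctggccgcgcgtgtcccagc
On either strand, none of the 5 windows held the FoxO core GTAAACA, which 3.65% of 32851 promoter windows hold. None held the Meis and Pknox core TGACAG (19.2% of windows) or the Pbx site TGATTGAT (0.746%). No match says only that these letters are not in these windows.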

How the data were processed

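Each deposited scanner file holds, per the file headers, the intensity of every spot in both channels and of its local background; the extraction program is not given in the sources used here. A deposited table of log2 ratios of siRNA over reference served as an alternative, and its making is not given in the sources used here. Channel 1 was read as Cy5; per the labels, Cy5 marked the siRNA pool of replicates 2 and 4 and Cy3 that of replicates 1 and 3, and every ratio was turned to siRNA over scrambled.

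Mean intensities were corrected with normexp (offset 50) and normalized by loess within arrays, control spots at weight 0, in limma 3.58.1 (R 4.3.3). Loess assumes that most probes of any brightness do not change. Each of the 41174 gene probes was fitted by itself, with a coefficient per siRNA and a dye term (5 residual degrees of freedom), two-sided, with Benjamini-Hochberg adjustment over all probes at 0.05. Gene names come from the platform annotation, which gave 34186 probes 1 symbol, 0 several and 6988 none. Empty spots were 959 controls, with the 97.5th percentile per channel as their limit.

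All probes of the 8 genes and Foxo6 were named, as were called genes of the other TALE, partner and target lists and the 5 genes most like the brightest Pbx3 and Meis2 probes. The members and lists were chosen with earlier results of these data known. The labels call the 4 pools per siRNA independent. Data were also simulated on 41174 probes, with 50 probes changed at each size named here. Over both siRNAs 78% of changes of 0.5 log2 units and 96% of changes of 1 were recovered, with 5 false of 149 calls. Between the siRNAs 22% and 62% were recovered, with 2 false of 44 calls. The real data had 4879 calls over both siRNAs, so these rates need not hold for them.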

Additional observations from a re-analysis of the deposited data

Results flagged for a closer look

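Of 44 sets of 4 arrays (the 21 TALE probes and Foxo6 with each siRNA), 5 held 1 array far from the other 3 by Dixon's test, and chance gives about 1 in 20. All 5 were with siFoxO6-3. Pknox1 stood at 0.32 on replicate 3, with the others at −0.26 to −0.22. Meis2 probe 2 stood at −0.93 on replicate 4, with the others at −0.15 to −0.08. The other 3 were dim probes on replicate 2, namely Pbx3 probe 4 (−0.19), Pbx4 probe 2 (0.13) and Pknox2 probe 3 (−0.57). Replicates 3 and 4 are among the arrays that resembled the others least.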

How the results depend on the processing

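Shares in brackets are of all probes or genes called in the same setting. Over both siRNAs the 5 called TALE probes became 0 with median centring (1.23%), 0 when the reference pool was let vary like the siRNA pools (0%), 3 of 8 genes with the brightest probe per gene (13.3%) or the mean of all probes (12.6%), and 3 to 5 on leaving out 1 array (3 without replicate 1 of siFoxO6-2, 5.36%, or of siFoxO6-3, 5.33%). With siFoxO6-2 the 4 became 0 (0%), 0 (0%) and 2 (brightest probe, 8.79%), 2 with a trended robust variance (1.21%), 1 with a single-siRNA fit (1.21%) and 1 to 5 on leaving out 1 array. It was 1 without siFoxO6-2 replicate 4 (1.11%) and 2 without siFoxO6-2 replicate 1 (1.25%) or 2 (3.32%). With siFoxO6-3 the 0 became 2 with an offset of 16 (1.31%), 2 with array weights (1.72%), 1 with a single-siRNA fit (0.488%), 5 (7.99%) without the 3 arrays that resembled the others least (a choice made after seeing the data) and 0 to 2 on leaving out 1 array (2 without siFoxO6-2 replicate 3, 3.73%, and 1 without siFoxO6-3 replicate 3, 0.0704%). Between the siRNAs the count was 0 in every alternative run. Foxo6 over both siRNAs was −0.69 with median centring (limma adjusted p = 0.0706), −1.30 with the variable reference (limma adjusted p = 1.00) and −1.35 to −1.24 on leaving out 1 array. Of the called values, signs changed with median centring for Pbx2 probe 1 (0.082), Pbx3 probe 2 (0.022), Pknox2 probe 1 (0.12), Parp1 (0.24), Klf4 (0.044) and Ccnd1 (0.17). Signs also changed without the 3 arrays for the siRNA difference of Pbx3 probe 1 (−0.045) and Meis2 probe 3 (−0.021), neither of which was called. The cause was not tested. With the replicate number as a block, 6 TALE probes were called over both siRNAs (9.72%), 4 with siFoxO6-2 (6.01%), 0 with siFoxO6-3 (0.0267%) and 0 between them (0%). Same-numbered arrays had correlations of 0.36, −0.18, −0.29 and −0.53 in their deviations from the group means, with the fitted dye effect removed. With the dye effect left in, the correlations were 0.52, 0.18, −0.09 and −0.28. Same-numbered arrays share the dye orientation, and 1 dye effect was fitted over both siRNAs. Neither set of correlations can therefore decide whether the numbers pair the samples. Slide as a block was not run, as no slide is named in the files used. Dim signal over background limits Pbx4, Meis1 and Meis3.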
